A study of Oryza sativa with 10 samples.

Results

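The regions described here are the 1758 broad rows of the BioCyTASQ in vitro peak list, which were selected on their width alone, at least 1500 bp from start to end. They were 1758 of 49898 rows, or 3.52% of the list, and held 3.98 Mb, or 14.6% of its bases. A row is a line of the deposited list. It can be a whole called peak or a piece of one, as explained below.

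Seedlings of the rice cultivar Nipponbare, 2 weeks old, were fixed with 1% formaldehyde for 10 min. The 10 libraries formed 7 groups. BioTASQ capture in vivo, BioTASQ capture in vitro and BioCyTASQ capture in vitro had 2 libraries each, and there was 1 biotin and 1 input library for either condition. All groups shared cultivar, age, tissue and fixation, and the labels say no more than vitro or vivo of the condition. The series set small-molecule baits against the antibody BG4 for the capture of G-quadruplex DNA, and no library here carries a BG4 label.

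G-quadruplexes are structures of guanine-rich DNA in which sets of guanines pair into flat quartets that stack on each other. They are stabilised by potassium and can form where several runs of guanines lie close together. BioTASQ and BioCyTASQ carry guanines on a template that can assemble into a quartet of its own and stack on that of the DNA, and their biotin allows recovery on streptavidin beads. BG4 is an antibody fragment against the same structures and is commonly used with a FLAG tag.

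Each capture had 1 peak list and no list per replicate, so no value has an error between replicates and no p-value is given. In its place stands the spread over the 12 chromosomes, which shows how evenly a value held along the genome. The BG4 list and the BioTASQ in vitro list were identical in all 29469 rows, and their peak names carry the word flag and no bait. Since its capture is unclear, it is called the BG4/BioTASQ in vitro list. The BioCyTASQ and BioTASQ in vivo peak names carry the word biotin, but the control library behind each list, and whether lists share one, are not given in the sources. Some rows are pieces of a called peak: rows shared a peak name, and the summit lay beyond the row's end in 2.01% of BioCyTASQ rows, 22.97% of in vivo rows and 0 of the rows called in the BG4/BioTASQ set. Read depth was not analysed here, and the sequence and genes at these positions were not analysed here.

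The broad rows ran from 1500 to 10271 bp, with a median of 1851 bp against 403 bp for the 48140 narrower rows. Of them, 1050 measured 1500 to under 2000 bp, 350 measured 2000 to under 3000 bp and 358 measured 3000 bp or more. These width classes were set after the values were seen. In the BG4/BioTASQ in vitro list only 7 rows reached 1500 bp, and in the in vivo list 527 did. The 3 rows just inside the limit, all 1500 bp wide, had fold enrichments of 8.22, 8.11 and 5.15 and touched 1, 2 and 1 in vivo rows. The 3 rows just outside it, each 1 bp narrower, had 8.50, 8.42 and 7.45 and touched 2 in vivo rows each. None of these 6 touched the BG4/BioTASQ in vitro list.

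Fold enrichment, the authors' value for the peak summit over its control, comes from the same signal as the width and is given as a description. Its median was 7.22 in broad rows, with quartiles of 5.09 and 10.6, against 3.83 in narrower rows. Within the broad rows the median was 6.20 at 1500 to under 2000 bp, 7.77 at 2000 to under 3000 bp and 11.3 at 3000 bp or more. Fold enrichment and −log10 p were solved together for 2 numbers at the summit, the fragments counted and the control level, which is the count the peak caller expected. The median fragment number was 131 in broad and 59 in narrower rows. The median control level was 14.0 fragments in broad and 12.2 in narrower rows. Within the broad rows it was 16.8 at 1500 to under 2000 bp, 12.4 at 2000 to under 3000 bp and 12 at 3000 bp or more.

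Broad rows lay on all 12 chromosomes at 4.64 ± 0.753 per Mb (mean ± SD, n = 12 chromosomes). Chromosome 4 had the highest density, 6.03 per Mb with 214 rows, followed by chromosome 5 with 5.84 and chromosome 1 with 5.64. Chromosome 10 had the lowest, 3.92 per Mb with 91 rows. As a share of the BioCyTASQ rows of a chromosome they ran from 2.68% on chromosome 10 to 4.48% on chromosome 1.

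The widest broad row lay on chromosome 2 at 29644009 to 29654279, counted from 1 on the build of the deposited lists, which those lists do not name. It was 10271 bp wide, had a fold enrichment of 11.5 and held 9 in vivo rows, the most of any broad row. These 9 rows carried 6 peak names, so some were pieces of the same called peak. They covered 55.4% of the row. The one under the BioCyTASQ summit, 29646736 to 29648435, carried an in vivo fold enrichment of 7.11, shared with another piece of its called peak. The second widest row, chromosome 5 at 1092136 to 1102019, held 5 in vivo rows over 39.6% of its 9884 bp. The third, chromosome 2 at 16025905 to 16032660, held 5 in vivo rows over 48.3% of its 6756 bp. None of these 3 touched the BG4/BioTASQ in vitro list.

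**Figure D1:**
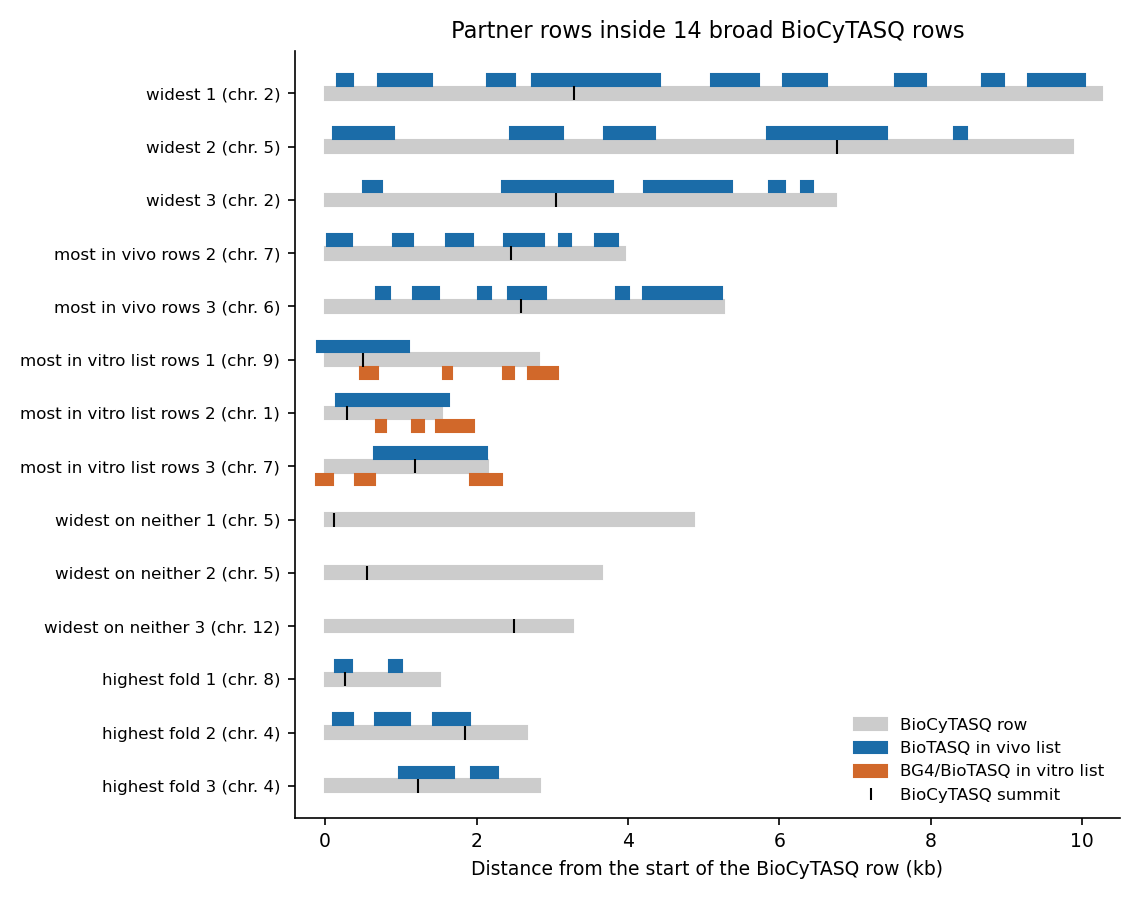
Partner rows inside 14 broad BioCyTASQ rows chosen by width, number of partner rows or fold enrichment, drawn from the start of each row (kb on the horizontal axis). Grey bars are BioCyTASQ rows, black ticks their summits, blue bars BioTASQ in vivo rows and orange bars BG4/BioTASQ in vitro rows. The row of 10271 bp holds 9 in vivo rows along its whole length, and orange bars appear at 3 rows of 1544 to 2824 bp.

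BioTASQ in vivo rows lay on most broad rows and commonly on several places of each. At least 1 bp was shared with an in vivo row by 1572 of the 1758 broad rows, or 89.4% (95% Wilson interval 87.9 to 90.8%), against 60.3% of all BioCyTASQ rows and 59.3% of the narrower ones. The interval covers counting error only, and neighbouring rows are not independent. The broad share was the higher on 12 of 12 chromosomes, by 29.7 ± 3.83 percentage points. A wide row has more room to touch a partner row. Against narrower rows of 750 to under 1500 bp, of which 81.2% touched an in vivo row, the difference was 8.24 points. With a window of 200 bp at the BioCyTASQ summit, the same for all rows, 86.5% of broad and 57.4% of narrower rows touched an in vivo row.

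At least 2 in vivo rows were touched by 962 broad rows, or 54.7%, against 3.84% of all BioCyTASQ rows. In vivo rows numbered 1 in 610 broad rows, 2 in 576, 3 in 243, 4 in 101, 5 in 34, 6 in 7 and 9 in 1. The mean rose with width, from 1.34 at 1500 to under 2000 bp to 3.11 at 3000 bp or more, where 259 of 358 rows (72.3%) touched at least 3, against 0.804% of all BioCyTASQ rows. Per kb, in vivo midpoints were alike in these classes, 0.783 and 0.795, with the widest class higher on 6 of 12 chromosomes, so the count per row grew with the width. Counted as distinct peak names, so that pieces of the same called peak count as 1, the means were 1.06 and 2.21, and 33.6% of broad rows touched at least 2 peaks, against 1.87% of all rows. Between consecutive in vivo rows on the same broad row the median gap was 282 bp, and 47.7% of these 1544 gaps lay between pieces of the same named peak.

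**Figure D2:**
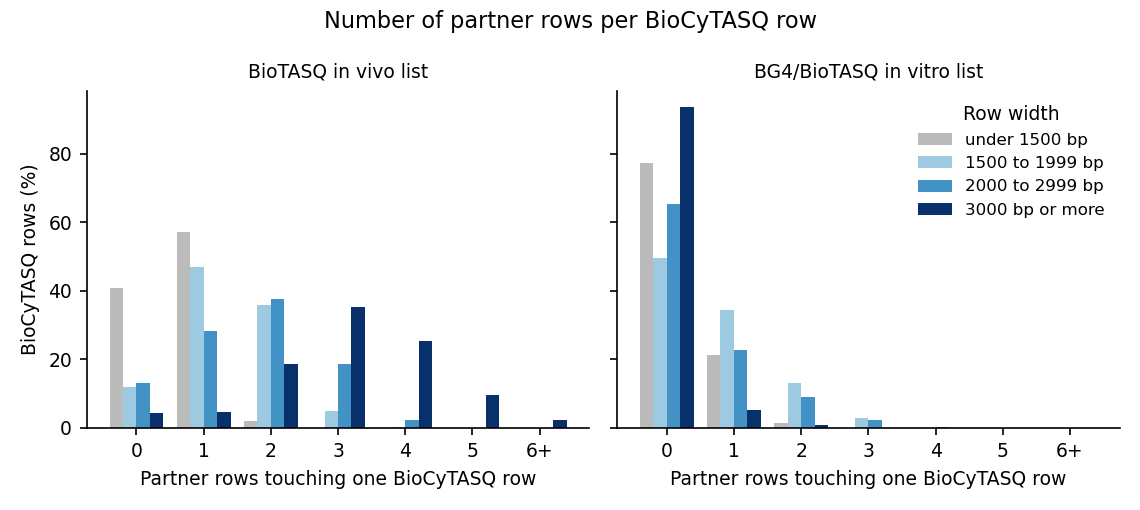
Number of partner rows that touch a BioCyTASQ row (horizontal axis) and the share of BioCyTASQ rows with that number (vertical axis, %), for the BioTASQ in vivo list (left) and the BG4/BioTASQ in vitro list (right). Bars are width classes of the BioCyTASQ rows: the widest class is centred on 3 in vivo rows, and 93.9% of it touches no BG4/BioTASQ in vitro row.

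Per kb, in vivo row midpoints were less frequent in broad rows (0.768) than in narrower rows (1.12), on 12 of 12 chromosomes. A density of midpoints depends on the width of the rows, so the covered share of bases is given beside it. In vivo rows covered 53.6% of the bases of broad rows and 46.2% of those of narrower rows. The broad value was the higher on 12 of 12 chromosomes, by 7.57 ± 2.8 points. Without the rows of any list whose summit lay beyond their end, the values were 40.8% and 40.4%. Such cut rows were 35.3% of in vivo rows on broad rows and 17.4% of those on narrower rows only. Leaving them out therefore took more from the broad value, and what the difference rests on was not tested. In windows of the same width 10 kb to either side, in vivo rows covered 9.35% of bases for broad and 7.41% for narrower rows.

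The BG4/BioTASQ in vitro list had rows on a minority of the broad rows, and the share depended on their width. It touched 671 broad rows, or 38.2% (95% interval 35.9 to 40.5%), against 23.2% of all BioCyTASQ rows and 22.7% of the narrower ones, with the broad share the higher on 12 of 12 chromosomes. The direction did not hold under other settings. Against rows of 750 to under 1500 bp, of which 42.4% touched the list, the difference was −4.27 points. With the 200 bp summit window it was 12.4% for broad and 17.2% for narrower rows. In bases, the list covered 6% of broad rows and 11% of narrower rows, lower in broad rows on 12 of 12 chromosomes, but with a limit of 1000 bp in place of 1500 bp the wider rows had the higher cover, by 1.58 points.

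Within the broad rows the BG4/BioTASQ in vitro list thinned out with width. It touched 528 of 1050 rows of 1500 to under 2000 bp, or 50.3% (47.3 to 53.3%), 121 of 350 rows of 2000 to under 3000 bp, or 34.6% (29.8 to 39.7%), and 22 of 358 rows of 3000 bp or more, or 6.15% (4.09 to 9.13%). On each of the 12 chromosomes the share was lower at 3000 bp or more than at 1500 to under 2000 bp, by 44.5 ± 7.66 points. At 3500 to under 4000 bp it was 1 of 126 rows, and at 4000 bp or more 4 of 98. In bases, the list covered 10.7% of the rows of 1500 to under 2000 bp and 0.321% of those of 3000 bp or more. In windows 10 kb away from these classes it covered 2.49% and 2.09%. In the widest class the cover was therefore below that of its own surroundings, 0.154 of the level in the windows.

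The share on the in vivo list showed no such fall. It touched 88.1% of the rows of 1500 to under 2000 bp (86.0 to 89.9%), 86.9% of those of 2000 to under 3000 bp and 95.8% of those of 3000 bp or more (93.2 to 97.4%). The share was higher in the widest class than at 1500 to under 2000 bp on 12 of 12 chromosomes, by 7.88 ± 3.14 points. In bases its cover was 55.4% in both of these classes and 46.8% at 2000 to under 3000 bp.

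**Figure D3:**
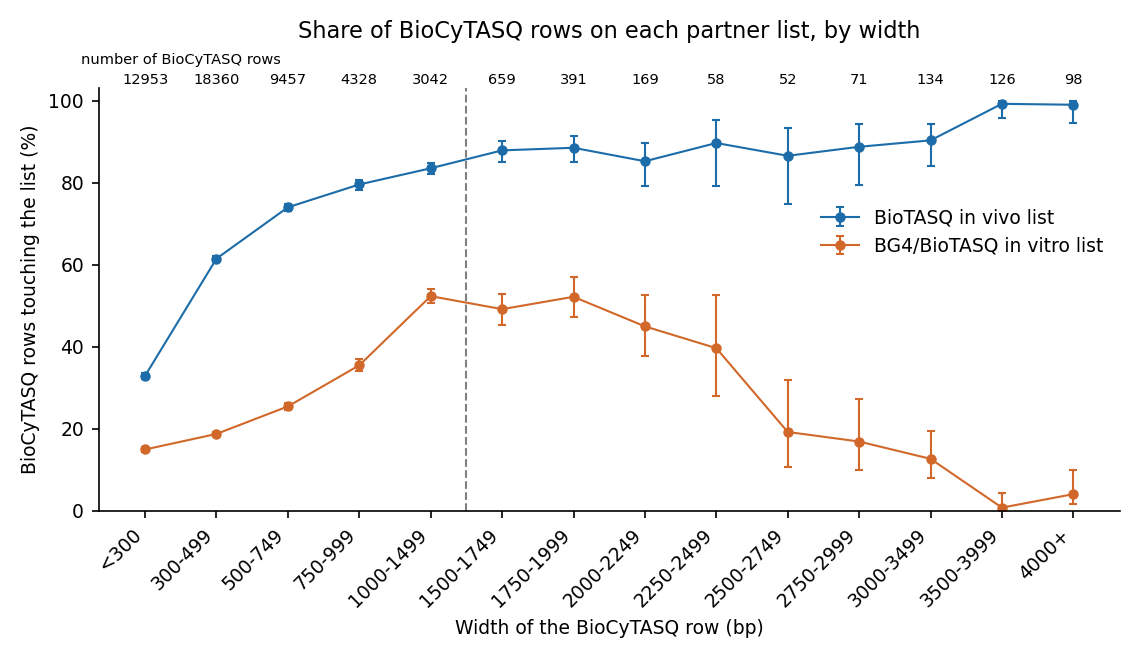
Share of BioCyTASQ rows (vertical axis, %) that touch the BioTASQ in vivo list (blue) or the BG4/BioTASQ in vitro list (orange) by at least 1 bp, by width of the BioCyTASQ row (horizontal axis, bp). Error bars are 95% Wilson intervals, numbers at the top are rows per width class and the dashed line is the 1500 bp limit. The orange share is 52.3% at 1000 to under 1500 bp and 0.794% at 3500 to under 4000 bp, where the blue share is 99.2%.

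The BioCyTASQ summit of a broad row that touched the in vivo list usually lay under an in vivo row, at a share near that of all rows. For the BG4/BioTASQ in vitro list the share was below that of all rows. Of the 1560 broad rows that touched an in vivo row and kept their own summit, the summit was under an in vivo row in 1482, or 95%, against 91.1% among all BioCyTASQ rows and 92.8% among those of 750 to under 1500 bp. The median distance from the summit to the nearest in vivo midpoint was 154 bp, with quartiles of 61.5 and 296 bp. Of the 663 such rows that touched the BG4/BioTASQ in vitro list, the summit was under one of its rows in 160, or 24.1%, against 51.1% among all rows and 44.4% among those of 750 to under 1500 bp. Their median distance was 444.5 bp, with quartiles of 179 and 838 bp. The rows of the 2 partner lists differ in width, 342 bp and 228 bp in the median, which bears on how often they reach a summit. The width of the BioCyTASQ row bears on it too, 1851 bp in the median for broad rows and 413 bp for all rows. Its part in the lower share was not tested.

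Along the broad rows, in vivo cover was lowest at the ends and BG4/BioTASQ in vitro cover was lowest in the middle. In vivo rows covered 31.7% of the outermost 10% of the width at either end and 62.5% of the 10% on either side of the middle. The BG4/BioTASQ in vitro rows covered 6.85% and 3.78% there. Low in vivo cover at the ends was not particular to broad rows. Among all BioCyTASQ rows the in vivo values were 25.9% and 58.6%, and at 750 to under 1500 bp 23.9% and 65.3%. The BG4/BioTASQ in vitro values were 9.24% and 10.7% among all rows, and 11.8% and 16.8% at 750 to under 1500 bp. Of the in vivo midpoints inside broad rows, 56.4% lay in the central 50% of the width, and of the BG4/BioTASQ in vitro midpoints 42.6%, where an even spread gives 50%. In narrower rows the central shares were 80.1% and 52.9%, and in those of 750 to under 1500 bp 79.7% and 53.9%. Narrower rows had a median width of 403 bp, and in vivo rows on narrower rows only 392 bp. So little room bears on where a midpoint can lie, and its part in the central shares was not tested. In rows of 3000 bp or more the in vivo midpoints were nearly evenly spread, with 50.7% in the central part. Only 23 midpoints of the BG4/BioTASQ in vitro list lay inside rows of that class, 3 of them in the central part. In vivo rows lay wholly inside the broad row they touched in 89.1% of 3116 cases, and BG4/BioTASQ in vitro rows in 68.2% of 921. Among all BioCyTASQ rows these shares were 53.7% and 39.3%, and among those of 750 to under 1500 bp 77.6% and 61.6%. A wider row has more room to hold a whole partner row.

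Just outside the edges, cover differed between the lists as well. Distances are centres of 50 bp steps, negative outside the row. At −225 bp from rows of 1500 to under 2000 bp, in vivo rows covered 1.86% of bases, below the 12.2% at −975 bp. The BG4/BioTASQ in vitro list covered 4.75% at the nearer and 2.67% at the farther place. Outside rows of 750 to under 1500 bp, in vivo cover was likewise lower at the nearer place, 3.60% against 11.7%. There the BG4/BioTASQ in vitro list covered 3.05% and 5.82%. Outside rows of 3000 bp or more, the values were 9.92% and 12.4% for the in vivo list and 0.0140% and 1.84% for BG4/BioTASQ in vitro rows. Another BioCyTASQ row lay within 500 bp of 48.7% of broad rows and of 22.5% of narrower rows.

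**Figure D4:**
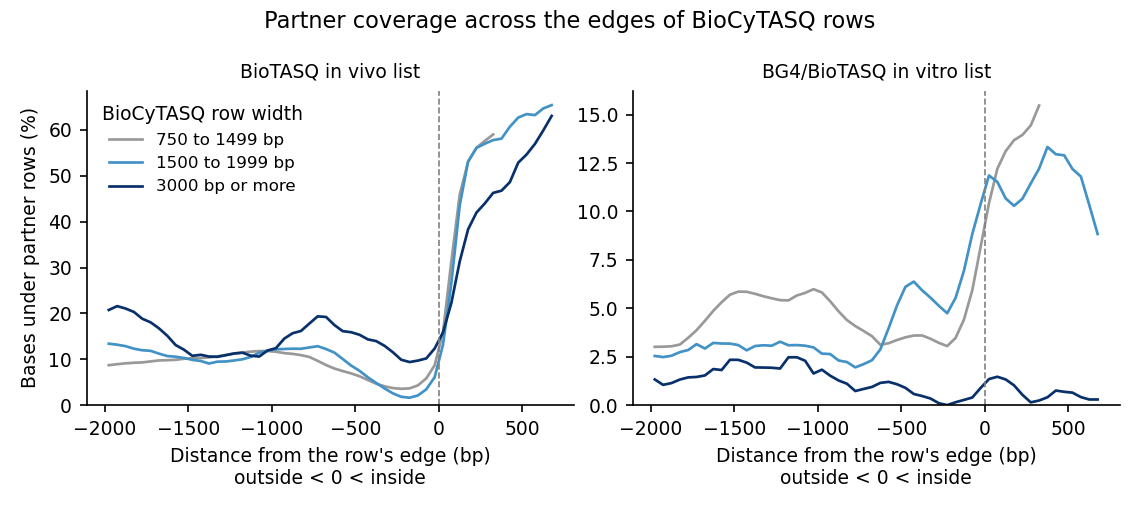
Percent of bases under BioTASQ in vivo rows (left) and BG4/BioTASQ in vitro rows (right) by distance from the nearer edge of the BioCyTASQ row (horizontal axis, bp, in steps of 50 bp, both edges averaged, negative outside), for 3 width classes. The vertical scales differ: in vivo cover climbs past the edge in all 3 classes, and BG4/BioTASQ in vitro cover does not pass 2.48% at rows of 3000 bp or more.

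In vivo rows on broad BioCyTASQ rows had higher fold enrichments in their own list than in vivo rows elsewhere. Their median in vivo fold enrichment was 5.14, against 4.66 for those on narrower rows only and 4.04 for those on no BioCyTASQ row. The broad value was the higher on 12 of 12 chromosomes, by 0.47 ± 0.14 between chromosome medians. They were also wider, 558 bp against 392 bp in the median, and more often cut, with 35.3% of summits beyond the row's end against 17.4%. Their median in vivo control level, 15.7 fragments, was equal to the lowest level in that list. The other medians lay close to it, 15.9 on narrower rows only and 16.1 in the whole in vivo list. Pieces of the same called peak carry the same fold enrichment, so a cut peak enters these in vivo medians once per piece. Of the in vivo rows on broad rows, 44.3% shared a peak name, against 10.6% of those on narrower rows only. In vivo medians with each peak counted only once were not computed. BG4/BioTASQ in vitro rows went the other way in strength, with a median of 4.44 on broad rows, 4.64 on narrower rows only and 4.94 on no BioCyTASQ row, and were lower on broad than on narrower rows on 11 of 12 chromosomes. Of the 527 in vivo rows of 1500 bp or more, 259 (49.1%) lay on a broad BioCyTASQ row, against 5.01% of the shorter in vivo rows.

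The share on either partner list moved with the BioCyTASQ control level, so the width classes were also compared within 5 groups of like size by that level. In the group of lowest level, 8.14 to 8.88 fragments, the BG4/BioTASQ in vitro list touched 28.6% of rows of 1500 to under 2000 bp (20.6 to 38.2%). In the highest, above 21.6 fragments, it touched 79.2% of them (74.3 to 83.3%). Rows of 3000 bp or more lay below the rows of 1500 to under 2000 bp in each of the 4 lower groups. Their shares were 3 of 24 rows in the lowest, 3 of 91 in the second, 9 of 174 in the third and 6 of 67 in the fourth. In the lowest group the intervals of the 2 classes overlapped, and in the other 3 they did not. The highest group held only 2 rows of that width. In the fourth group, at 14.0 to 21.6 fragments, the shares were 8.96% (4.17 to 18.2%) and 52.9% (47.6 to 58.0%). The in vivo list touched 45.9% of the rows of 1500 to under 2000 bp in the lowest group and 98.1% in the highest.

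**Figure D5:**
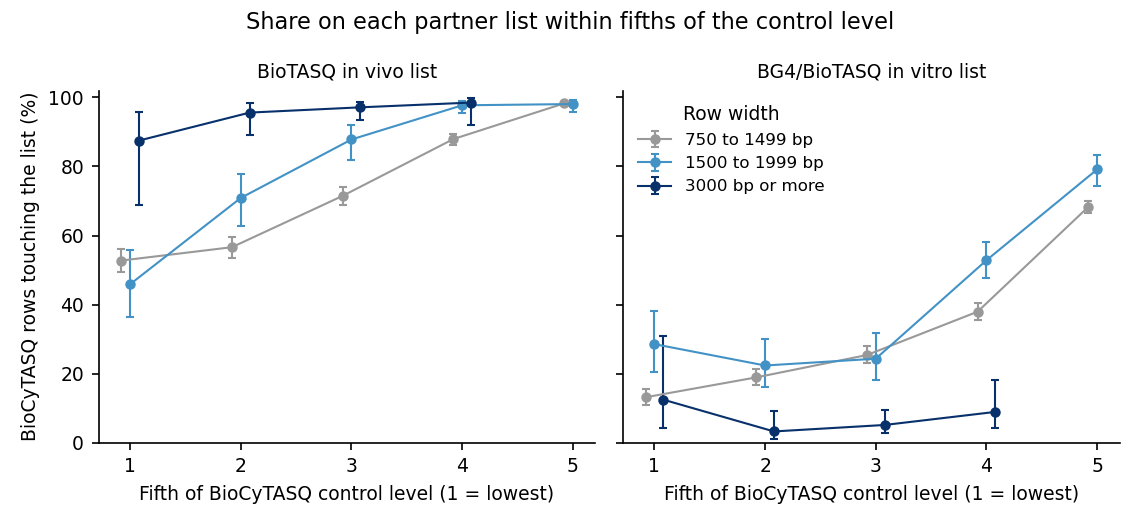
Share of BioCyTASQ rows (vertical axis, %) on the BioTASQ in vivo list (left) and the BG4/BioTASQ in vitro list (right) within 5 groups of BioCyTASQ rows by control level (horizontal axis, 1 is the lowest), for 3 width classes. Error bars are 95% Wilson intervals, and classes with fewer than 20 rows in a group are not drawn. On the right, rows of 1500 to under 2000 bp climb to 79.2% and rows of 3000 bp or more do not pass 12.5% in the 4 groups drawn.

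Taking the partner lists jointly, 996 broad rows (56.7%) touched the in vivo list alone, 576 (32.8%) both lists, 95 (5.40%) the BG4/BioTASQ in vitro list alone and 91 (5.18%) neither. Among all BioCyTASQ rows, 45.1% touched the in vivo list alone, 15.2% both, 8.01% the BG4/BioTASQ in vitro list alone and 31.7% neither. At 3000 bp or more, 329 of 358 rows (91.9%) touched the in vivo list alone. As a description from the rule's own signal, broad rows on the in vivo list alone had a median fold enrichment of 10.1 and a control level of 12.4 fragments. Those on both lists had 5.70 and 21.2, and those on neither 3.83 and 9.58. Broad rows on the BG4/BioTASQ in vitro list alone had 3.89 and 9.98. Among all BioCyTASQ rows the values were 5.03 and 12.4 on the in vivo list alone and 3.77 and 26.7 on both. They were 2.97 and 12.8 on the BG4/BioTASQ in vitro list alone and 3.31 and 9.77 on neither.

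At most 4 BG4/BioTASQ in vitro rows lay on a broad row, in 1 case, and 38 broad rows of 1527 to 2644 bp tied at 3. On chromosome 9, the row at 13613573 to 13616396 touched 4 rows of that list, over 23.3% of its 2824 bp, and 1 in vivo row that covered 39% of it from its start. Its BioCyTASQ fold enrichment was 3.59 over a control level of 47.5 fragments. The 2 of highest fold enrichment among those with 3 are described next. On chromosome 1, the row at 5997648 to 5999191 touched 3 of them and 1 in vivo row that covered 91.1% of it. On chromosome 7, the row at 2358893 to 2361045 also touched 3, beside 1 in vivo row over 69.7% of it. After the widest row of all, 7 broad rows of 3643 to 5273 bp tied at 6 in vivo rows. The 2 of them with the highest fold enrichment, chromosome 7 at 18286121 to 18290076 and chromosome 6 at 16668381 to 16673653, touched 0 rows from the BG4/BioTASQ in vitro list.

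The 3 broad rows of highest BioCyTASQ fold enrichment all touched in vivo rows and none of the BG4/BioTASQ in vitro list. The third of them, chromosome 4 at 30649624 to 30652468, had 18.0 and touched 2 in vivo rows of 5.08 and 5.14. The widest rows on neither list had lower fold enrichments. The first, chromosome 5 at 29840625 to 29845496, was 4872 bp wide with a fold enrichment of 6.32. Its summit, 120 bp from its start, had 313 fragments over a control level of 48.7, against a median of 131 fragments in broad rows. The next, chromosome 5 at 11525036 to 11528698 and chromosome 12 at 26822811 to 26826087, had fold enrichments of 3.36 and 3.16. Their summits had 38 and 47 fragments.

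Some broad rows lay near each other, a description chosen after the values were seen. With gaps of up to 10 kb allowed, 639 of the 1758 rows (36.3%) fell into 271 groups of 2 or more, and 1119 stood alone. No such count was made for other rows, so this share has no level to be set against. Of the broad rows, 80 shared a peak name with another BioCyTASQ row, so some neighbours were pieces of the same called peak. The 2 largest groups had 7 rows each. That on chromosome 11, from 20201512 to 20253964, had rows of 1561 to 3892 bp that touched 18 in vivo rows and 1 of the BG4/BioTASQ in vitro list. That on chromosome 3, from 32350 to 60116, had rows of 1506 to 4661 bp with 15 in vivo rows and 0 of the BG4/BioTASQ in vitro list. A group of 4 on chromosome 5, from 29829108 to 29845496, ended in the widest row on neither list. It touched 0 in vivo rows and 1 of the BG4/BioTASQ in vitro list. Its fold enrichments ran from 3.43 to 6.32, below the broad median of 7.22.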

How the data were processed

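The files were 4 peak lists of 10 columns without header, in the column order of MACS2 narrow peaks. Per the submitters' processing notes, MACS2 2.1.1, SAMtools 1.5, Picard, BWA and Trim Galore 0.4.4 were used, in roles not stated. The deposited fold enrichment, a ratio, and the deposited −log10 p and −log10 q are the authors' values per peak. The deposited score repeats −log10 q and was not used. Of the BG4/BioTASQ in vitro list, 26 repeated rows were dropped.

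Rows were counted as touching at 1 shared bp. Midpoints, covered bases, windows 10 kb to either side and a 200 bp summit window were computed. Pileup and control level were solved from fold enrichment and −log10 p under the Poisson formulas of MACS2, with the pileup restricted to whole numbers. The solved values gave back the −log10 p within 0.001 for 100% of BioCyTASQ and in vivo rows. The counts of touching rows, midpoints, rows wholly inside and covered bases, and the solving of control levels, were tested on simulated data. The windows, profiles and groupings built on them were not. Named regions were the 3 first by width, by rows of each partner list, by width on neither list and by fold enrichment, at most 1 per 100 kb, with ties ordered by fold enrichment. Members, lists and measures were chosen with earlier results of these data known. Motif and gene overlap were planned and not run, since no genome of the files' build was used. Alternatives were other widths, −log10 q of at least 5, uncut rows, other windows, other comparison rows and each chromosome left out. Computations used SciPy 1.17.1, pandas 2.3.3 and NumPy 2.4.6 under Python 3.11.15, and figures Matplotlib 3.10.9.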

Additional observations from a re-analysis of the deposited data

How the results depend on the processing

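Values are differences, broad minus narrower rows, except the central shares, which are those of broad rows and cannot turn direction. They were counted as moved where they left the SD over chromosomes of the same quantity. Leaving out each chromosome moved none of the 10 results. Of 76 other values, 35 stayed within that SD, 36 moved and 5 turned direction. The cause was not tested.

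For the share on the in vivo list, 30.2 points as reported, the values were 25.8 at a −log10 q of at least 5, 24.7 without rows cut before their summit, 55.5 for in vivo rows wholly inside, 8.24 against rows of 750 to under 1500 bp, 36.5 for rows of 3000 bp or more and 25.4 as a mean over 5 groups of control level. For the BG4/BioTASQ in vitro share, 15.5 points, they were 26.5 and −3.07 at limits of 1000 and 2000 bp, 20.8 wholly inside, −4.80 in the summit window, −4.27 against 750 to under 1500 bp, 23.7 for 1500 to under 3000 bp and −16.5 for 3000 bp or more.

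In vivo midpoints per kb, −0.352, were −0.440 without cut rows and −0.124 against 750 to under 1500 bp. Over flanks, −0.382, they were −0.456 and −0.147, and covered bases, 7.37 points, 0.388 and 2.35. BG4/BioTASQ in vitro midpoints per kb, −0.174, were −0.0254 and −0.295 at 1000 and 2000 bp, −0.229 against 750 to under 1500 bp, −0.0758 for 1500 to under 3000 bp and −0.362 for 3000 bp or more. Over flanks, −0.171, these values were −0.0319, −0.287, −0.216, −0.0763 and −0.353. Covered bases, −5.01 points, were 1.58, −8.76, −8.62, −2.05 and −10.7 in the same order.

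The central share of in vivo midpoints, 56.4%, was 66.3% and 52.1% at 1000 and 2000 bp, 61.8% without cut rows, 59.6% for 1500 to under 3000 bp and 50.7% for 3000 bp or more. For BG4/BioTASQ in vitro midpoints, 42.6% as reported, it was 33.9% at 2000 bp and 13% for 3000 bp or more. The width classes and the groups by control level were added after the data were seen. No paired analysis was possible because the lists hold no values per replicate, and no replicate could be left out. The alternatives on sequence motifs and genes were not run.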
